A study of Mus musculus with 12 samples.

Results

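Cell cycle and DNA replication genes are described here as a set of 40 members, 17 that act in S phase and 23 that act in G2 and mitosis (G2/M), taken by gene symbol from the 24956 symbols of a count table. The table covers 12 tumours, 6 per host genotype, each grown from PDA.69, a cell line derived from KPC mice, a mouse model of pancreatic ductal adenocarcinoma (PDAC), and labelled as giving tumours with few T cells. The control hosts were labelled WT. The other hosts carried Alb-Cre+/+;Stat3f/f, in which the albumin promoter drives Cre recombinase in hepatocytes and deletes the floxed Stat3 alleles there, so the deletion lies in the host liver and both groups of tumours grew from the same line. The comparison asks whether the tumours' cell cycle transcripts differed with the loss of hepatocyte Stat3. The labels give no host age, sex or batch, nor whether every tumour had its own host, so p-values measure the spread between these tumours. All the tumours come from 1 cell line.

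Library totals ran from 5691707 to 8085609 counts. Reads came from the 3′ end of transcripts, so values are given as CPM (counts scaled to a common library size, here with edgeR's TMM factors), and are compared between tumours and not between genes. Keratin 19 (Krt19), a marker of the PDAC epithelium, was at 600 ± 47.9 CPM with WT hosts and 548 ± 31.9 CPM with Alb-Cre Stat3f/f hosts (SD over 6 tumours), and the epithelial marker Lgals4 was at 0. Epcam, another epithelial marker, was at 98.9 ± 46.7 and 72.3 ± 6.41 CPM. Acinar tissue, the enzyme-secreting part of the pancreas, was present to a very uneven degree: 15 acinar genes took 0.497 to 19.3% of counts in WT tumours and 0.681 to 36.4% in Alb-Cre Stat3f/f tumours. In such bulk samples, fewer cells of a type and less RNA per cell cannot be told apart.

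Cells copy their DNA in S phase and divide it in mitosis. E2F factors, released from the retinoblastoma protein, switch on genes for nucleotide supply and for the licensing and firing of replication origins. Later the MuvB complex with B-Myb and FoxM1 switches on the genes for mitotic entry, the spindle and chromosome segregation, at a promoter element called the cell cycle genes homology region (CHR), often with NF-Y bound at nearby CCAAT boxes. Because most members are transcribed only in cycling cells, their summed RNA is widely used as a proxy for proliferation in tumours.

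The promoters of the S phase and G2/M members were searched for these elements. RefSeq windows of the GRCm38.p6 build, from 250 bases before to 50 bases after each transcript start, were found for 32 of the 40 members, 14 S phase and 18 G2/M. Searched on both strands were TTTCCCGC, TTTGGCGC, TTTGCCGC and TTTCGCGC as E2F letters, TTTGAA and TTCGAA as CHR letters, and CCAAT. Matches were allowed to overlap. Mcm7 and Uhrf1 had 2 windows each, and a match in either was counted. An E2F match was held by 7 of 14 S phase members and 1 of 18 G2/M members, against 2.6% of 27025 genes. A CHR match was held by 2 of 14 S phase and 14 of 18 G2/M members, against 21.7% of all genes. CCAAT was held by 9 of 14 and 16 of 18, against 41.1%. A match is a description of the letters, not evidence that a factor binds. The sequences below show 1 member without an E2F match (Rrm2, the only member called between genotypes), 1 S phase member with several E2F matches (Mcm6), the G2/M member that has both E2F and CHR matches (Cdk1) and the G2/M members Ube2c and Top2a, each with CHR and CCAAT matches. Each run is read 5′ to 3′ on the gene's strand and ends at the base before the RefSeq start, and capitals mark E2F, CHR and CCAAT matches on either strand. The runs are chr12:24708134-24708253 (plus strand) for Rrm2, chr1:128359706-128359825 (minus strand) for Mcm6, chr10:69352913-69353052 (minus strand) for Cdk1, chr2:164769829-164769928 (plus strand) for Ube2c and chr11:99024190-99024339 (minus strand) for Top2a.
Rrm2: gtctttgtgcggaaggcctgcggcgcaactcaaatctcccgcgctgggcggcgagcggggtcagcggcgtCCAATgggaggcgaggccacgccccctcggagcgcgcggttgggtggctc
Mcm6: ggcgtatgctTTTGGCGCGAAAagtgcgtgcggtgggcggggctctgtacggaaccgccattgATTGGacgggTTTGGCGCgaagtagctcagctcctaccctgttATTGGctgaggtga
Cdk1: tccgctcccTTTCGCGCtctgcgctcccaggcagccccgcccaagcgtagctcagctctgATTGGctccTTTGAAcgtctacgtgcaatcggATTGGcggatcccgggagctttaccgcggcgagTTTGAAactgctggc
Ube2c: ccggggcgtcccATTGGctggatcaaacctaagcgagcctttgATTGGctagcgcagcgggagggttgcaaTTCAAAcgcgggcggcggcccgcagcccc
Top2a: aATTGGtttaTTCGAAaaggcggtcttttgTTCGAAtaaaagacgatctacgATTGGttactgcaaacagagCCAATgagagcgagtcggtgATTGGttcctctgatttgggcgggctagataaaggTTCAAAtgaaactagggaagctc

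In Mcm6, 2 of the 3 E2F matches overlap, and the E2F letters lie further from the start than the nearer CCAAT box. Cdk1 has 1 E2F match upstream of 2 CHR matches. Top2a has 3 CHR matches and 4 CCAAT boxes in the run, and Ube2c has 1 CHR match with 2 CCAAT boxes upstream of it in its run. The whole window of each of these 2 genes holds 6 CCAAT boxes. Rrm2 has a CCAAT box and none of the E2F letters searched in its window, which says nothing of E2F at this gene.

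Between the genotypes, 1 of 39 tested members was higher in Alb-Cre Stat3f/f tumours at an adjusted p under 0.05 and none was lower, where 2.23% of all 12856 tested genes were called higher and 0.747% lower, 2.98% in all. A share of 1 in 39 is near that background. It was Rrm2, the small subunit of ribonucleotide reductase, which makes deoxyribonucleotides. Gins2, a subunit of the replicative helicase, had 3 to 19 counts per tumour and did not pass the filter on low counts.

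Rrm2 lay at 23.0 CPM in the lowest, 30.3 at the median and 35.5 in the highest WT tumour, and at 32.7, 45.6 and 62.4 CPM in the Alb-Cre Stat3f/f tumours. Of the Alb-Cre Stat3f/f tumours, 5 were above every WT tumour, and tumour 4 fell inside the WT range. The gene, on chr12 from 24708241 to 24714146 on the plus strand (GENCODE M21, GRCm38, whose start lies slightly before that of RefSeq), rose from 29.7 ± 5.06 to 45.7 ± 10.0 CPM (mean ± SD over 6 tumours per genotype), a log2 fold change of 0.62 ± 0.15 (SE) with an edgeR adjusted p of 0.0291. The 95% interval ran from 0.30 to 0.93. The call did not survive leaving out WT tumour 2, 4 or 6 or Alb-Cre Stat3f/f tumour 1, 2 or 3, where the edgeR adjusted p was 0.0624 to 0.0761, nor adding the acinar score as a covariate, where it was 0.121, and also not with the epithelial score as covariate (0.200, at a log2 fold change of 0.62 ± 0.19 SE) or without the acinar-rich tumours (0.279). Under scaling by library totals alone, chosen after seeing the data, the adjusted p was 0.532 by edgeR, and under library totals without acinar genes and Rn45s it was 0.0938. The call was kept by DESeq2 (adjusted p 0.00673).

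The other 15 tested S phase members did not pass the edgeR threshold. Rrm1, the large subunit of the same enzyme, was at 47.9 and 50.4 CPM in WT and Alb-Cre Stat3f/f tumours. Tyms, which makes thymidylate, was at 13.3 and 15.1 CPM, and Tk1, the thymidine salvage kinase, at 74.3 and 77.3. The 6 MCM proteins form the core of the replicative helicase, and for none of them did the groups separate. Mcm2 had a log2 fold change of 0.17, Mcm4 of 0.20, Mcm5 of 0.08, Mcm3 of 0.02 and Mcm7 of -0.03. Mcm6 lay at 51.1 to 64.4 CPM in WT and at 44.0 to 59.3 CPM in the other tumours, and had the lowest value of the S phase members, -0.19 ± 0.11 (SE) with an edgeR adjusted p of 0.336. Cdc6, which with Cdt1 loads the helicase onto origins, had a log2 fold change of 0.33 and Cdt1 one of 0.04. Pcna, the sliding clamp of the DNA polymerases, lay at 18.6 to 27.8 CPM with WT hosts and at 17.8 to 28.5 CPM with Alb-Cre Stat3f/f hosts, a log2 fold change of 0.04. Uhrf1, which helps copy DNA methylation to the new strand, had a log2 fold change of 0.28. Of the E cyclins that start S phase, Ccne1 had 0.40 and Ccne2 -0.06. Together, 13 of the 16 tested S phase members had a positive log2 fold change, with a median of 0.08 against -0.00 over all tested genes. Under scaling by library totals alone 1 of 16 was positive. The median of all tested genes was then -0.41, and the S phase median lay 0.11 above it, against 0.08 under TMM.

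**Figure D1:**
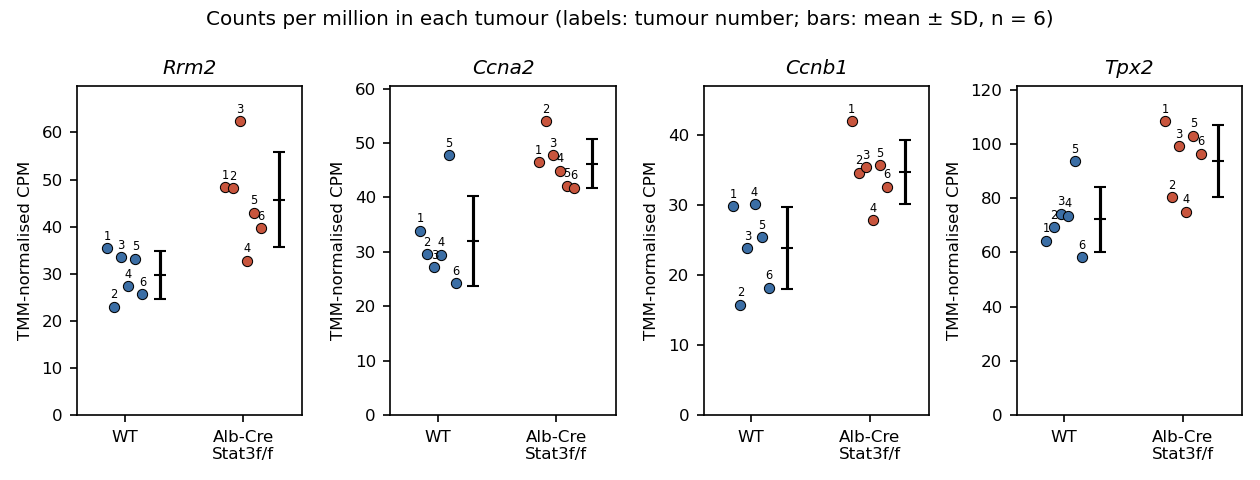
TMM-scaled CPM of Rrm2, Ccna2, Ccnb1 and Tpx2 in each tumour, by host genotype, with group means and SD. The Alb-Cre Stat3f/f tumours lie higher on average for each gene, and the groups overlap in all 4 panels.

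No G2/M member reached the threshold by edgeR, and most had a small positive difference. Of the 23, all tested, 21 had a positive log2 fold change, with a median of 0.25. Under scaling by library totals alone 4 of 23 were positive, with a median of -0.13. The median of all tested genes was then -0.41, and the G2/M median lay 0.29 above it, against 0.25 under TMM. At an unadjusted p under 0.05, 7 of the 23 were higher and none lower (30.4%), where 11.5% of all tested genes were higher and 7.83% lower at that level. That count was 16 without WT tumour 5, where 12.5% of all genes were higher at that level. It was 4 without WT tumour 6 (9.32% of all genes) and 4 without Alb-Cre Stat3f/f tumour 1 (9.93%). With the acinar covariate it was 3 (7.27%), with the epithelial covariate 2 (6.46%) and under library totals alone 0 (2.42%). Without the acinar-rich tumours, which left 2 Alb-Cre Stat3f/f tumours and dropped WT tumour 5, it was 10 (6.54%). DESeq2 called 2, Ccna2 and Ccnb1, in a comparison in which it called 6.96% of genes.

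Ccna2, cyclin A2, which acts with CDK1 and CDK2 from S phase into mitosis, lay at 24.3 CPM in the lowest, 29.5 at the median and 47.7 in the highest WT tumour, and at 41.8, 45.7 and 54.0 CPM in Alb-Cre Stat3f/f tumours. WT tumour 5 was the only WT tumour inside the Alb-Cre Stat3f/f range. Means were 32.0 ± 8.33 and 46.2 ± 4.49 CPM (SD), and the gene lies on chr3 from 36564865 to 36572150 on the minus strand (GENCODE M21, GRCm38). The difference of 0.53 ± 0.14 (log2, SE) narrowly missed the threshold, at an edgeR adjusted p of 0.0509. Without WT tumour 5 it was 0.67 with an adjusted p of 0.00552 by the same test, and it was also called without Alb-Cre Stat3f/f tumour 5 (0.0430), without the filter on low counts (0.0437) and by DESeq2 (0.0190). In the other direction, the difference was 0.38 with the acinar covariate (edgeR adjusted p 0.194), 0.33 with the epithelial covariate (0.458), 0.12 under library totals alone (0.665) and 0.45 without WT tumour 6 (0.123). Ccnb1, cyclin B1, the partner of CDK1 at mitotic entry, lay at 15.7, 24.6 and 30.1 CPM with WT hosts and at 27.8, 35.0 and 41.9 CPM with Alb-Cre Stat3f/f hosts. All but tumour 4 of the latter were above every WT tumour. The log2 difference was 0.54 ± 0.16 (SE; edgeR adjusted p 0.0705), and without that tumour 4 it was 0.59 (adjusted p 0.0441 by edgeR). It was 0.44 without WT tumour 2 (edgeR adjusted p 0.125) and 0.13 under library totals alone (0.674), and the adjusted p was 0.194, 0.308 and 0.417 with the acinar covariate, with the epithelial covariate and without the acinar-rich tumours. Cyclin B2 (Ccnb2) lay at 21.4 to 41.0 and 33.6 to 39.1 CPM, a log2 difference of 0.31 ± 0.14 (SE; edgeR adjusted p 0.235). Cdk1, the mitotic kinase these cyclins activate, spanned 35.7 to 84.2 CPM in WT and 53.0 to 85.1 CPM in the other tumours, so that the groups overlapped widely, with a log2 difference of 0.22.

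Among the mitotic kinases and their activators, Tpx2, which activates Aurora A on the spindle, lay at 58.1, 71.3 and 93.5 CPM in WT tumours and 75.0, 97.7 and 108 CPM in Alb-Cre Stat3f/f tumours, with 4 of the latter above every WT tumour. The log2 difference was 0.38 ± 0.12 (SE; edgeR adjusted p 0.0923), and it was called without WT tumour 5 (0.47, adjusted p 0.0324 by edgeR) and without Alb-Cre Stat3f/f tumour 4 (0.43, 0.0449). It was 0.32 without WT tumour 6 (edgeR adjusted p 0.211), 0.23 under library totals without acinar genes and Rn45s (0.324) and -0.00 under library totals alone (0.998). Aurka, Aurora A, had a log2 fold change of 0.32 and Plk1, another kinase of mitotic entry, 0.22. Aurkb, the Aurora kinase of the chromosomal passenger complex, lay at 2.50 to 6.38 CPM in WT and 4.31 to 9.86 CPM in the other tumours, with 4 of these above every WT tumour. It had the largest log2 fold change of the members, 0.72 ± 0.29 (SE), with means of 4.27 and 7.10 CPM and an edgeR adjusted p of 0.169. With the acinar covariate the log2 fold change of Aurkb was 0.45 ± 0.28 (SE, edgeR adjusted p 0.600). Birc5 (survivin), of the same complex, had 0.21.

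At the kinetochore and the checkpoint that holds chromosomes until they are attached, Bub1 lay at 9.57 to 16.0 CPM with WT hosts and 10.8 to 21.1 CPM with Alb-Cre Stat3f/f hosts. It had a log2 fold change of 0.45 ± 0.19 (SE, edgeR adjusted p 0.193) and was above every WT tumour in 5 of 6 Alb-Cre Stat3f/f tumours, while Bub1b had 0.25. With the acinar covariate the log2 fold change of Bub1 was 0.21 ± 0.18 (SE, edgeR adjusted p 0.740). The centromere proteins Cenpa, Cenpe and Cenpf had 0.32, 0.20 and 0.25. Ube2c, which with the anaphase-promoting complex marks cyclin B for destruction and whose promoter is shown above, lay at 59.7 to 107 and 90.0 to 141 CPM and had 0.33 ± 0.14 (SE; edgeR adjusted p 0.196), and Cdc20, the activator of that complex, had -0.05. The mitotic motor Kif11 had 0.26, Kif23 of the central spindle 0.18 and the spindle protein Nusap1 0.06. Kif20a had 90 counts in all WT tumours and 74 in all Alb-Cre Stat3f/f tumours, too few to read a direction. Foxm1, a transcription factor of this gene group, had 0.17. Mki67, which codes for the Ki-67 proliferation antigen, lay at 73.0, 102 and 128 CPM in WT tumours and at 80.9, 120 and 141 CPM in Alb-Cre Stat3f/f tumours, with a log2 fold change of 0.16 ± 0.16 (SE; edgeR adjusted p 0.62). Top2a, the topoisomerase that untangles sister chromatids, lay at 328, 482 and 601 CPM and at 420, 576 and 693 CPM, with 0.28 ± 0.15 (SE; edgeR adjusted p 0.329). For both genes the ranges overlapped.

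**Figure D2:**
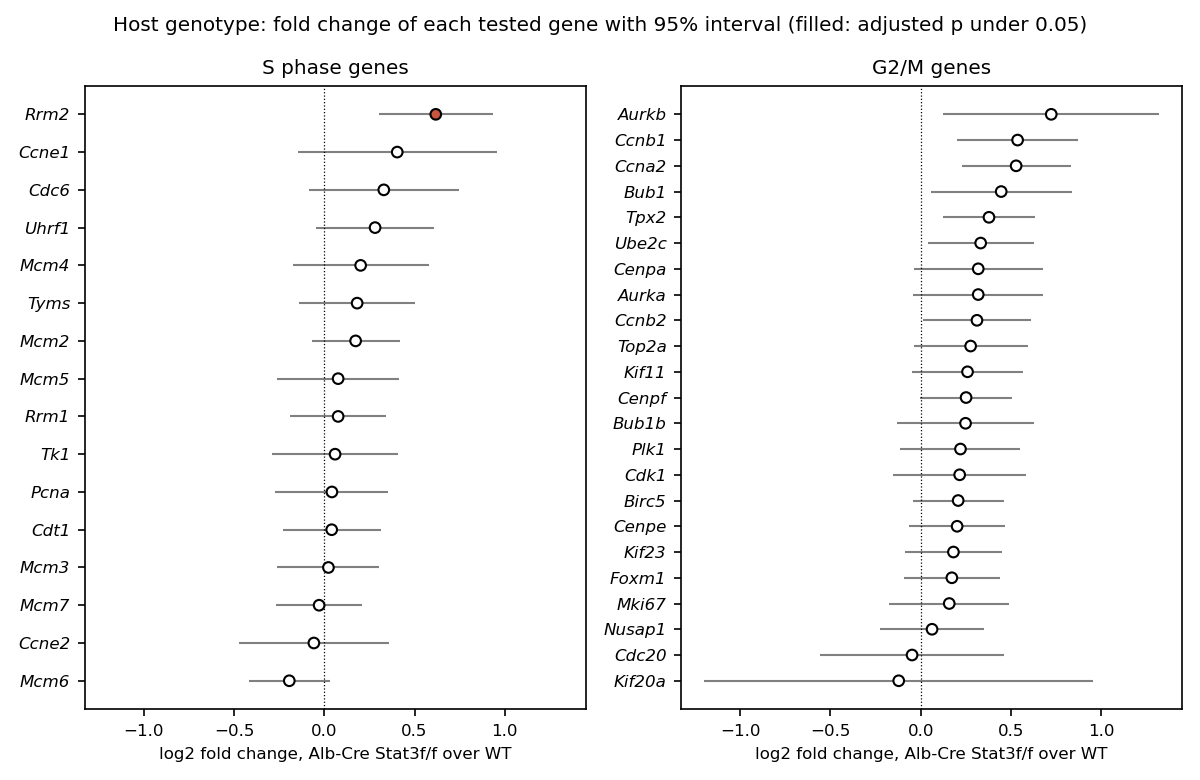
Log2 fold change (Alb-Cre Stat3f/f over WT) of each tested member with its 95% interval, S phase and G2/M members apart. Most points lie above 0 in the G2/M group, most intervals cross 0, and Rrm2 is the member called, all under TMM scaling. Under library totals alone 4 of 23 G2/M members are positive, where the median of all tested genes is -0.41.

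No member separated the genotypes in every tumour, against 1.37% of all genes that did so upward. Rrm2, Ccnb1 and Bub1 had 5 of 6 Alb-Cre Stat3f/f tumours above every WT tumour, a pattern shown by 2.84% of all genes, and 11 of the 39 members had none, as 45.2% of all genes did. The median 95% interval of a member spanned 0.32 on the log2 scale to either side, so an estimate smaller than that leaves 0 inside the interval of a typical member. The members' coefficient of variation had a median of 21.7% with WT hosts and 16.6% with Alb-Cre Stat3f/f hosts.

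The same tumours were often at the extremes. WT tumour 5 was the highest WT tumour for 29 of 39 members, 19 of the G2/M group and 10 of the S phase group. WT tumours 6 and 2 were each the lowest for 13 members and WT tumour 1 for 10. Among Alb-Cre Stat3f/f tumours, tumour 1 was highest for 14 members and tumours 2 and 4 lowest for 13 each. Scored as the mean log2 CPM of the members, G2/M stood at 5.29 ± 0.24 (SD) with WT hosts and 5.55 ± 0.15 with Alb-Cre Stat3f/f hosts, and S phase at 4.99 ± 0.18 and 5.13 ± 0.13. For the G2/M score, WT tumour 5 stood at 5.70, among the highest Alb-Cre Stat3f/f tumours, and the other 5 WT tumours lay below every Alb-Cre Stat3f/f tumour. That separation was narrow, with WT tumours 3 and 4 at 5.342 and 5.357 and Alb-Cre Stat3f/f tumour 4 at 5.363. Without WT tumour 5, 23 of 23 G2/M and 16 of 17 S phase members, Gins2 then passing the filter, had a positive log2 fold change, with medians of 0.37 and 0.16. Without WT tumour 6 the counts were 20 of 23 and 12 of 17, with medians of 0.19 and 0.04, and the S phase median was 0.04 without WT tumour 1 and 0.15 without Alb-Cre Stat3f/f tumour 4. Whether the S phase and G2/M shifts differ was not tested.

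**Figure D3:**
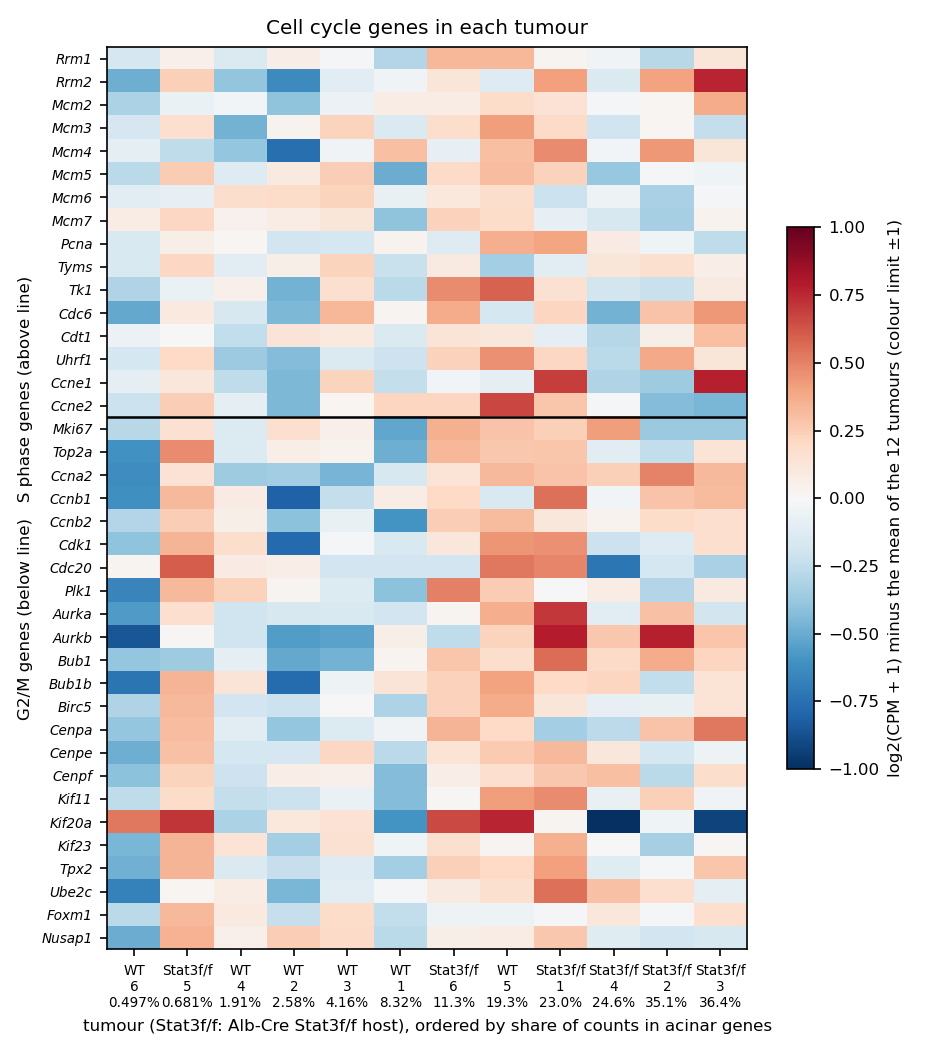
Each tested member in each tumour as log2(CPM + 1) relative to that gene's mean over the 12 tumours, with colours limited at 1 to either side, S phase above the line and G2/M below, and tumours ordered by acinar share of counts. WT tumour 5 stands above the other WT tumours for 29 of the members, and WT tumours 2 and 6 stand low.

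Markers of other cell types were read in the same tumours. Summed macrophage markers lay at 1062 to 1600 CPM with WT and 1596 to 2472 CPM with Alb-Cre Stat3f/f hosts, with 7 of 10 higher by edgeR. Of all genes, edgeR called 2.23% higher and 0.747% lower. Csf1r, the macrophage growth factor receptor, was at 406 and 639 CPM. T cell markers lay at 17.4 to 51.6 and 53.8 to 109 CPM, ranges that did not overlap, with 1 of 10 higher by edgeR (Cd3e was at 4.33 and 9.13 CPM). All 10 had a positive difference, with a median of 1.06, and 8 were higher at an unadjusted p under 0.05 (11.5% of all genes). DESeq2, which called 6.96% of all genes, called 6 of them. Epithelial markers lay at 2711 to 3541 and 2165 to 2843 CPM, with 1 of 10 lower by edgeR and 3 by DESeq2. By edgeR 1 of 12 fibroblast markers was higher, and 0 of 5 B cell, 0 of 7 endothelial and 0 of 7 islet markers were called. DESeq2 called 2, 1, 0 and 1 of them, all higher. Their median log2 fold changes were 0.16, 2.25, 0.20 and 1.06. All 5 B cell markers were higher at an unadjusted edgeR p under 0.05, with summed values of 3.53 to 23.1 and 7.22 to 56.9 CPM. The part of these cells in the members' values was not tested. With an epithelial score as covariate, 22 of 23 G2/M and 10 of 16 S phase members had a positive difference, with medians of 0.17 and 0.04, and edgeR called none, with 3 at an unadjusted p under 0.05. Those 3 were all higher. In that fit 0.404% of all genes were called, and at an unadjusted p under 0.05 there were 10.8% in either direction and 6.46% higher.

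Lists of other cell cycle genes were read beside the members, against 2.23% of all genes called higher. At an unadjusted p under 0.05 there were 19.4% of all genes in either direction and 11.5% higher. Of 19 tested E2F, retinoblastoma and Myb regulators, 1 was called higher, E2f8, a repressor of the E2F family, which rose from 9.55 to 15.7 CPM (log2 fold change 0.71 ± 0.19 SE, edgeR adjusted p 0.0415). Of 15 checkpoint and repair genes 1 was called higher, Cdc25a, the phosphatase that activates CDK2, which rose from 28.1 to 44.5 CPM (0.65 ± 0.17 SE, adjusted p 0.0482 by edgeR). For each of these genes 5 of 6 Alb-Cre Stat3f/f tumours were above every WT tumour. DESeq2 called both (adjusted p 0.0103 and 0.0148), but the edgeR calls were lost under many settings. For E2f8 and Cdc25a the edgeR adjusted p was 0.157 and 0.240 with the acinar covariate, 0.222 and 0.274 with the epithelial covariate, 0.349 and 0.687 without the acinar-rich tumours, and 0.405 and 0.554 under library totals alone. The log2 fold change of Cdc25a was 0.47 with the acinar covariate and 0.31 without the acinar-rich tumours. Both calls were also lost without WT tumour 1, 2, 3, 4 or 6 or Alb-Cre Stat3f/f tumour 1, 2 or 3, and that of Cdc25a without WT tumour 5. No gene was called by edgeR in the other 5 lists, and DESeq2 called 1 gene in them, Aspm. In 43 spindle, kinetochore and cytokinesis genes, 38 were positive with a median log2 fold change of 0.25 and 9 had an unadjusted p under 0.05 (20.9%). All 9 were higher, where 11.5% of all genes were higher at that level. Aspm, a spindle pole protein, had 0.38 ± 0.12 (SE, edgeR adjusted p 0.0835). Prc1, which bundles the central spindle, had 0.32 ± 0.11 (SE, edgeR adjusted p 0.123). In 16 D cyclins, CDKs and inhibitors 11 were positive, with a median of 0.06 and 4 at an unadjusted p under 0.05 (25.0%), 2 of them higher (12.5%). There Cdkn2b, an inhibitor of CDK4 and CDK6, had -0.52 and Cdkn1a, the p53 target p21, had 0.78 ± 0.28 (SE, edgeR adjusted p 0.156), while cyclin D1 (Ccnd1) was at 265 and 301 CPM. Myc, a driver of cell growth listed with the regulators, was at 8.33 and 10.7 CPM. Origin licensing genes were positive in 12 of 20 (median 0.06), fork and nucleotide genes in 14 of 25 (median 0.02) and chromosome structure genes in 12 of 17 (median 0.09), with 2, 3 and 3 at an unadjusted p under 0.05 (each a smaller share than the 19.4% of all genes). Of these, 1, 1 and 3 were higher (5, 4 and 17.6% of the tested genes in each list), against 11.5% of all genes.

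The second comparison asked whether the members followed the acinar content. Each tumour received an acinar score, the mean log2 CPM of the 15 acinar genes, and the slope on it was fitted in edgeR with the genotype as a second term, so that the slope is the log2 change of a gene per doubling of acinar RNA. No member was called, in either direction, where 2.59% of all genes were called rising and 0.762% falling, 3.35% in all. The 15 acinar genes, among them the proenzyme genes Cpa1 and Prss2, make up the score, so their own slopes are no test. DESeq2 also called 0 members. At an unadjusted p under 0.05 there were 5 of 39 members, all rising, against 17.9% of all genes in either direction and 10.2% rising. They were Mcm2 (0.05), Mcm4 (0.08), Ccna2 (0.07), Aurkb (0.13) and Bub1 (0.10). Slopes ran from -0.06 for Cdc20 to 0.13 for Aurkb, leaving aside Kif20a with its few counts (-0.14 ± 0.10 SE), with a median of 0.02 in S phase members (13 of 16 positive) and 0.01 in G2/M members (15 of 23 positive). Mki67 and Top2a had slopes of -0.01 and -0.01. No gene of the 7 other lists was called by edgeR either, and DESeq2 called Cdkn1a rising and Stmn1, which destabilises microtubules, falling. By edgeR, Cdkn1a had a slope of 0.14 ± 0.04 (SE, adjusted p 0.115) and Stmn1 one of -0.09 ± 0.02 (SE, adjusted p 0.0528). Unadjusted p-values under 0.05 were held by 7 of 25 fork and nucleotide genes (28%, against 17.9% of all genes) and by 0 to 3 genes in each of the other lists. The 7 ran in both directions, and those with the smallest p were Chaf1a, falling (-0.10), and Fen1, rising (0.11). In that list 9 of 25 genes had a positive slope, with a median of -0.02, so it did not share the mostly rising slopes of the S phase members.

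**Figure D4:**
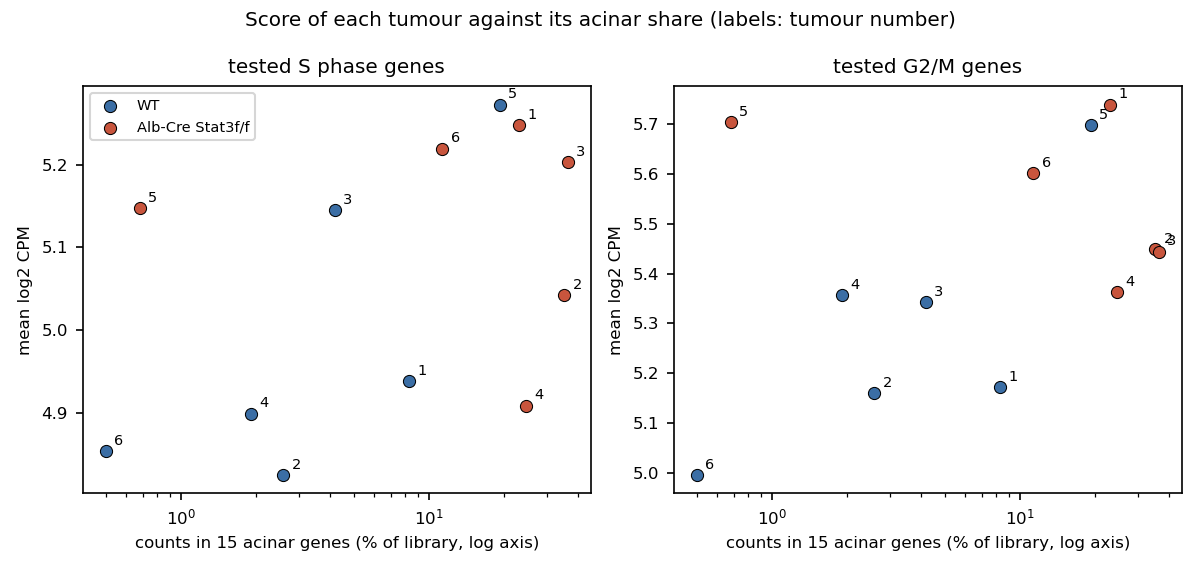
S phase and G2/M scores (mean log2 CPM of the members) of each tumour against its share of counts in the 15 acinar genes (log axis), by genotype, with tumour numbers as labels. On the acinar score the G2/M slope is 0.09 among WT tumours and -0.03 among Alb-Cre Stat3f/f tumours. WT tumour 5 is the WT tumour with the highest G2/M score and the highest acinar share.

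Within WT tumours alone, all 22 tested G2/M members had a positive slope with a median of 0.09 and 14 of 16 S phase members did, with a median of 0.08. Of 38 members, 13 had an unadjusted p under 0.05, where 10.3% of all genes did, and edgeR called 0, where it called 0.791% of all genes. WT tumours 5 and 6 had the highest and lowest acinar scores of that group (13.1 and 7.07). They also had its highest and lowest G2/M scores (5.70 and 5.00). The slopes within WT tumours were not fitted without them. Within Alb-Cre Stat3f/f tumours, 4 of 22 G2/M members had a positive slope, with a median of -0.03, and 6 of 16 S phase members did, with a median of -0.01. EdgeR called 0 of these and 1.5% of all genes, and 1 member had an unadjusted p under 0.05, where 12.7% of all genes did. The difference of the slopes, tested as an interaction after these values were seen, was called for 0 members and for 0 of all genes by edgeR, with 11 of 39 members at an unadjusted p under 0.05 against 3.77% of all genes. All 11 were negative, meaning a lower slope in Alb-Cre Stat3f/f tumours. The share of all genes in that direction was not counted, and the interaction was not fitted without WT tumour 5 or 6. Single tumours moved the slopes over both genotypes in either direction. Without WT tumour 5, 8 of 17 S phase and 7 of 23 G2/M members had a positive slope, with medians of -0.00 and -0.02, and without WT tumour 6 the counts were 10 of 17 and 9 of 23, with medians of 0.01 and -0.01. Without Alb-Cre Stat3f/f tumour 5, which had the lowest acinar score of its group, they were 14 of 16 and 21 of 23, with medians of 0.06 and 0.06, and without tumour 2 of that genotype the G2/M median was 0.02.

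The genotype comparison was repeated with acinar content in the fit. With the acinar score as covariate, 23 of 23 G2/M members were positive with a median of 0.21, and 12 of 16 S phase members with a median of 0.05. Without the tumours with over 15% acinar counts, which left 5 WT and 2 Alb-Cre Stat3f/f tumours, 23 of 23 were positive with a median of 0.39, and 14 of 17 S phase members with a median of 0.23. EdgeR called 0 members in either fit, where it called 1.42% and 0.709% of all genes. At an unadjusted p under 0.05 there were 4 and 12 members, all of them higher. The shares of all genes at that level were 11.9% and 10.8% in either direction, and 7.27% and 6.54% higher. The WT tumour left out for its acinar share was tumour 5 (19.3%), most often the highest WT tumour for these members. Without tumour 5 alone, 23 of 23 G2/M members were positive with a median of 0.37. There 18 members were higher at an unadjusted edgeR p under 0.05 (12.5% of all genes). Removing acinar content and removing that tumour cannot be told apart here. Rrm2 had 0.50 ± 0.15 (SE) with the covariate and 0.51 ± 0.19 (SE) without the acinar-rich tumours.

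The members took 0.276 ± 0.0290% of all counts with WT hosts and 0.245 ± 0.0921% with Alb-Cre Stat3f/f hosts (SD). Counted outside the acinar genes and the ribosomal transcript Rn45s, the shares were 0.309 ± 0.0412% and 0.321 ± 0.0635%. The order of the genotype means thus differed with the total used, and the ranges overlapped under both. Scaled by library totals alone, the median of all genes was -0.41 between genotypes, and the G2/M members stood at -0.13 and the S phase members at -0.30, 0.29 and 0.11 above that median. Rrm2 was 0.17 ± 0.22 (SE) there.

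**Figure D5:**
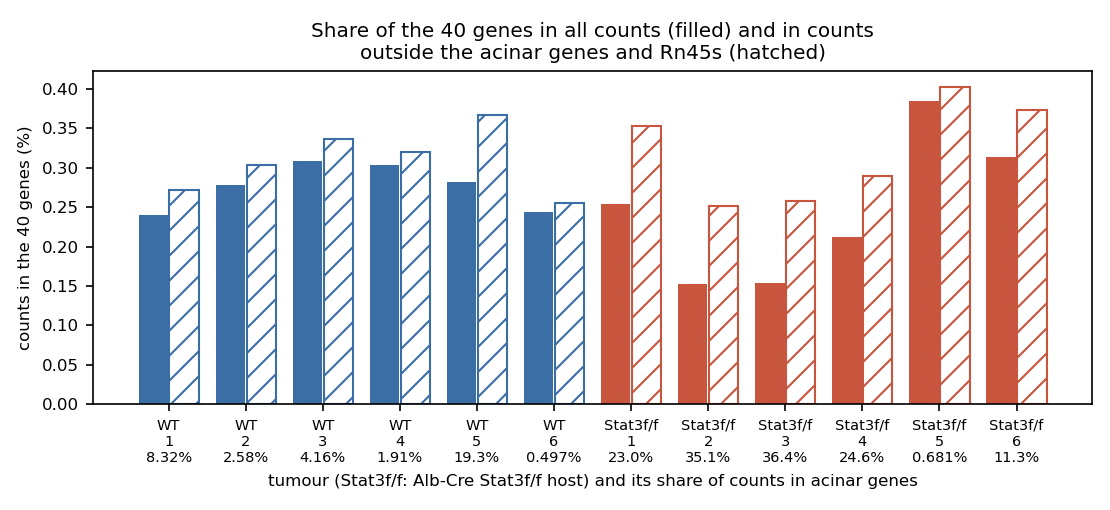
Percent of counts taken by the members in each tumour, of all counts (filled bars) and of counts outside the acinar genes and Rn45s (hatched bars), coloured by genotype. The Alb-Cre Stat3f/f tumours range from 0.153 to 0.385% of all counts, and the genotypes overlap in both measures.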

How the data were processed

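Per the labels' protocols, tumour RNA came from fixed, paraffin-embedded sections (RNeasy FFPE kit), and libraries were prepared with the QuantSeq 3′ mRNA-Seq FWD kit. The deposited values are raw gene counts, 1 column per tumour. Per the submitters' processing notes, STAR and the mm10 build were used. Their versions, the counting tool, its annotation and strand setting, and its treatment of reads shared by paralogs: not given in the sources used here. Molecular identifiers are not mentioned.

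Of 24982 entries, 26 carried a date instead of a symbol and were left out (0.0690 to 0.166% of counts). Counts were fitted in R 4.3.3 with edgeR 4.0.16 (limma 3.58.1) by the robust quasi-likelihood test, two-sided, after filterByExpr (minimum count 10, minimum total 15, proportion 0.7), which left 12856 genes, and TMM scaling (factors 0.578 to 1.29). P-values were adjusted by the Benjamini-Hochberg method across every tested gene (threshold 0.05). The common dispersion was 0.0626. DESeq2 1.42.0 was an alternative. Scores are mean log2 CPM with a prior count of 2. The fits were also run on simulated counts, which held no shift in acinar content between tumours, so that run does not test the scaling. The members and lists were chosen with earlier results of these data known. From each pathway list and test, up to 4 called genes, or the 2 with the smallest p, could be named, together with Cdkn1a, Ccnd1, Myc, Krt19, Epcam, Cpa1, Prss2, Cd3e and Csf1r. Within a genotype, no pair of libraries had near-identical counts (smallest chi-square per gene 12.6). Sample descriptions begin with numbers of unstated meaning whose order follows the genotype, and the 2 cannot be told apart.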

Additional observations from a re-analysis of the deposited data

Results flagged for a closer look

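Among 88 groups of 6 values checked, 7 held a tumour set apart from the rest by Dixon's criterion, where chance gives about 1 in 20. Mcm7 in WT tumour 1 was low at 160.2 CPM. WT tumour 5 was high for Pcna (27.79 CPM), Uhrf1 (40.87 CPM), Cdc20 (13.57 CPM), Aurka (32.04 CPM) and Kif11 (47.25 CPM). The acinar score of Alb-Cre Stat3f/f tumour 5 was low at 7.065.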

How the results depend on the processing

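The G2/M members called higher between genotypes numbered 0 by edgeR, 2 by DESeq2, 1 without the filter on low counts and 1 with a filter of at least 10 CPM in 6 tumours, and 0 to 2 when a tumour was left out. The 1 S phase member called became 0 under library totals alone, under library totals without acinar genes and Rn45s, with the acinar covariate, with the epithelial covariate and without acinar-rich tumours, and 0 to 1 when a tumour was left out. Under library totals alone, the genotype medians were -0.30 for S phase, -0.13 for G2/M and -0.41 for all genes. With that scaling, 5 S phase and 10 G2/M members were called falling with the acinar score, in a fit that called 44.3% of all genes. There Mcm6 had a slope of -0.11, Cdt1 -0.10, Ccnb2 -0.10, Birc5 -0.11, Cenpf -0.10 and Tpx2 -0.10, each opposite to its small positive slope under TMM. The epithelial marker Krt19 had -0.10 there, opposite in the same way. The median slope of all genes in that fit was -0.11. The S phase and G2/M medians lay 0.02 and 0.01 above the median of all genes, the same as under TMM. Without the genotype term, 2 G2/M members, Bub1 and Ccna2, were called rising, in a fit that called 9.01% of all genes. The acinar score differed between genotypes by 2.39 log2 units (exact two-sided permutation p = 0.128; 1.76 to 3.50 when a tumour was left out), the acinar share by 15.7 percentage points (exact permutation p = 0.0325), and the score by 3.50 without Alb-Cre Stat3f/f tumour 5 (exact permutation p = 0.00866). Small changes of setting also ended the call of E2f8 (edgeR adjusted p 0.0512 without the filter) and of Cdc25a (0.0509 with RLE scaling, 0.0508 without the acinar genes and Rn45s). The scalings by library totals and the interaction were chosen after seeing the data.

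Tumour numbers shared by the genotypes did not pair them: correlations of same-numbered tumours ran from -0.513 to 0.127, with 2 of 6 above 0.1 and 1 tumour best matched to its own number. A replicate block removed no call from the members, with Rrm2 at an edgeR adjusted p of 0.0472, while E2f8 (0.106) and Cdc25a (0.143) were no longer called, and in all 189 genes were called, against 383 without the block. Depth limits Gins2, which was not tested, and Kif20a, with 90 and 74 counts per genotype.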
